A study of Homo sapiens with 6 samples.

Results

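PRPF19 and SRSF2 encode splicing factors, and the pooled guide library carried 20 guides against them, 10 for each gene, among 3653 guides in all. They were taken by the gene name given to each guide in the count table, and they fall into a first set, with low guide numbers, and a second set, which follows it in the numbering. PRPF19 had 5 first set guides (926 to 930) and 5 second set guides (2901 to 2905), and SRSF2 had 5 first set guides (1191 to 1195) and 5 second set guides (1561 to 1565). What separates the sets in design is not stated in the sources used here.

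The cells were HS-SY-II, a human synovial sarcoma line that carries the SS18::SSX1 fusion, made to express Cas9. In every group they had been transduced with the same lentiviral library at a low rate, so that most cells took up a single guide, and selected with puromycin. The guides were then counted in 2 libraries of tumours grown under the skin of athymic nude mice (in vivo, CDX), which lack T cells, and 2 libraries of cells kept in culture for 14 days, and both were set against 2 libraries of day 0 cells frozen after selection. The genes in the library were chosen because synovial sarcoma lines depended on them more than other cancer lines did in public screens, so the background in this library is not that of random genes. The labels number the tumours 1 and 2, but the axis labels of a supplementary plot of the study place both mice under replicate 1, so a shared transduction of the tumours could not be settled.

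Splicing removes introns from pre-messenger RNA in the spliceosome, a large particle of small nuclear RNAs and proteins. PRPF19 (PRP19 in yeast) is the ubiquitin ligase at the core of the Prp19 complex, which helps to hold the activated spliceosome together. SRSF2 (SC35) is a serine- and arginine-rich protein that binds exonic enhancers and recruits the splicing machinery to nearby splice sites, and it is recurrently mutated in myeloid neoplasms. Dividing cells of most kinds need both genes. In a pooled screen a guide that disables such a gene becomes rarer as its cells drop out, so the share of reads that a guide holds is the readout.

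In hg38 with GENCODE v44, PRPF19 (ENSG00000110107.9) lies at chr11:60890547-60906585 on the minus strand, with 16 exons and 1512 coding bases, and no other annotated gene overlaps it. SRSF2 (ENSG00000161547.17) lies at chr17:76734115-76737333 on the minus strand, with 3 exons, 2 of them coding, and 663 coding bases. Its coding exons lie within the spans of MFSD11 and of ENSG00000267168 on the plus strand, and MIR636 lies within it on its own strand. Cas9 as commonly used cuts beside an NGG motif, and 237 sites with such a motif would place the cut within coding bases of PRPF19, against 139 for SRSF2. Of these sites, 1 in PRPF19 (0.422%) and 9 in SRSF2 (6.47%) matched at least 1 further place in the genome exactly, and the further matches of SRSF2 sites lay on chromosomes 7, 11 and X. The guide sequences were not used here, so which of these sites the 20 guides cut, and in which exon, is not known. To show the kind of sequence that was open to the guides, the first 120 bases of the longest coding exon of each gene are given 5′ to 3′ along the gene, with each NGG on that strand in capitals (9 in each stretch).
PRPF19 exon 14, hg38 chr11:60898152-60898271, minus strand: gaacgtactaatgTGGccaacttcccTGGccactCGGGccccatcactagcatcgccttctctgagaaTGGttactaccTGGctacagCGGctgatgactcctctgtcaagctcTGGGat
SRSF2 exon 1 from the start codon, hg38 chr17:76737041-76737160, minus strand: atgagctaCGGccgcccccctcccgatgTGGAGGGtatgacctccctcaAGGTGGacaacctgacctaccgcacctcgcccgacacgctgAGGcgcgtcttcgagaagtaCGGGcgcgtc

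The tumour libraries held 4457673 and 8530791 counts, the day 14 libraries 3394352 and 4052307, and the day 0 libraries 21854232 and 4521533. All 20 guides passed the filter of a mean of 30 counts at day 0, as did 3607 guides of the library. Values below are CPM, the counts of a guide per 1000000 counts of its library after TMM scaling. The difference for a guide is the mean log2(CPM + 1) of the 2 libraries of a group minus that of the day 0 libraries, and the added 1 makes the loss of a guide left with a few counts look smaller than it was. On this scale the 183 non-targeting guides had a median of 0.49 in the tumours and 0.52 at day 14, and all kept guides had medians of -0.10 in the tumours and 0.01 at day 14. Scaling to the non-targeting guides moves the medians of all kept guides to -0.63 in the tumours and -0.51 at day 14, so the scale sets where 0 lies.

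The 20 guides together held 0.250% and 0.156% of all counts in the tumours, and 0.244% and 0.249% in the cultures at day 14, against 0.466% and 0.403% at day 0. Most of this difference lay in the second set. The tumours and the cultures were both set against the same day 0 libraries, so their values are given side by side and are not independent of each other.

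All 5 second set guides of PRPF19 held few reads in the 4 end libraries, the tumours and the cultures, compared with day 0. Guide 2905, the most abundant of them, had 29.9 and 2.89 CPM in the tumours and 18.3 and 5.32 CPM at day 14, against 600.2 and 199 CPM at day 0. Guide 2901 had 22.2 and 1.67 CPM in the tumours and 2.09 and 1.33 CPM at day 14, against 232 and 71.2 CPM at day 0. Both guides had their highest end value in tumour 1, and all 4 end libraries lay below both day 0 libraries.

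Guide 2902 had 1.66 and 0.304 CPM in the tumours and 1.57 and 1.33 CPM at day 14, against 109.9 and 55.6 CPM at day 0. Guide 2904 had 2.49 and 0.304 CPM in the tumours and 1.04 and 0.443 CPM at day 14, against 103 and 50.8 CPM at day 0. These values rest on 2 to 9 counts in each end library, so neither the order of the end libraries nor the exact fold can be read from them. Guide 2903 was left with 0 and 2 counts in the tumours and 1 and 1 counts at day 14, against 1312 and 26 counts at day 0. All 4 end libraries lie below the 3 counts taken as the floor, and no fold is given for this guide.

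The differences of the other 4 guides lay between -5.41 and -4.04 in the tumours and between -5.59 and -4.97 at day 14. Each was lower than the lowest of the 183 non-targeting guides, which was -3.04 in the tumours and -2.04 at day 14. For all 5 guides both tumours and both cultures lay below both day 0 libraries. Over all kept guides this pattern held for 30.6% in the tumours and 31.5% at day 14, and over second set guides for 46.6% and 52.3%, so the absence of overlap alone is common here. By the size of the difference the 4 guides other than 2903 ranked 62 to 165 from the lowest of the 3607 kept guides in the tumours and 22 to 42 at day 14.

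Of the 5 first set guides of PRPF19, none had a difference below -1 in either comparison with TMM scaling. Guide 926 had 255 and 291 CPM in the tumours and 357 and 339 CPM at day 14, against 291 and 311 CPM at day 0. Guide 929 had 293 and 360.0 CPM in the tumours and 304 and 193 CPM at day 14, against 302 and 332 CPM at day 0. For both guides the tumours overlapped day 0. Both cultures of guide 926 lay above day 0, as those of 46.8% of first set guides did, by a difference of 0.21, which is less than the median of the non-targeting guides.

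Guide 928 had 124 and 89.2 CPM in the tumours and 83.6 and 75.4 CPM at day 14, against 106 and 219 CPM at day 0. It was the only first set guide of PRPF19 with both day 14 libraries below both day 0 libraries, a pattern that 8.04% of all first set guides showed. Guide 930 had 104 and 39.3 CPM in the tumours and 112 and 86.3 CPM at day 14, against 86.5 and 139.6 CPM at day 0, and guide 927 had 80.4 and 47.3 CPM in the tumours and 31.3 and 22.4 CPM at day 14, against 27.5 and 45.5 CPM at day 0. The differences of the 5 guides ran between -0.77 and 0.79 in the tumours and between -0.93 and 0.21 at day 14.

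SRSF2 split less cleanly along the sets. In its second set, 4 guides had low values in the tumours and guide 1565 did not. Guide 1564 was the lowest, with 4.99 and 2.59 CPM in the tumours and 5.75 and 15.1 CPM at day 14, against 456 and 118 CPM at day 0. Guide 1563 had 16.6 and 17.2 CPM in the tumours and 37.9 and 51.9 CPM at day 14, against 313 and 253 CPM at day 0. Guide 1563 was close between the replicates of each group, and guide 1564 varied more, most widely at day 0.

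Guides 1561 and 1562 differed between the tumours in opposite directions. Guide 1561 had 0.832 and 19.3 CPM in the tumours and 8.10 and 93.4 CPM at day 14, against 239 and 169.6 CPM at day 0. Guide 1562 had 63.2 and 0.913 CPM in the tumours and 6.79 and 52.6 CPM at day 14, against 146 and 154 CPM at day 0. The low tumour values are 3 and 6 counts. Both guides were lower in culture 1 than in culture 2, and in every end library they lay below both day 0 libraries.

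Guide 1565 had 105 and 325 CPM in the tumours and 37.3 and 78.9 CPM at day 14, against 126 and 152 CPM at day 0. Its tumour values lay on either side of the day 0 values, and its cultures lay below them. Its difference was 0.42 in the tumours, where 84 of the 183 non-targeting guides were lower, and -1.33 at day 14, where 1 non-targeting guide was lower. The other 4 second set guides lay between -5.66 and -3.77 in the tumours and between -4.49 and -2.64 at day 14, in each case below every non-targeting guide, and ranked 45 to 208 of 3607 in the tumours and 65 to 166 at day 14. Counted over the set, both tumours lay below both day 0 libraries for 4 of 5 guides, and both cultures for 5 of 5. Over all second set guides this held for 46.6% in the tumours and 52.3% at day 14.

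In the first set of SRSF2, guide 1192 had low values in every end library and the other 4 did not. Guide 1192 had 3.88 and 30.0 CPM in the tumours and 27.2 and 20.0 CPM at day 14, against 324 and 311 CPM at day 0. Its differences of -4.69 in the tumours and -3.71 at day 14 lay below every non-targeting guide and within the range of the second set guides of the gene. Among all 1492 kept first set guides of targeted genes, 2.08% were below -3 in the tumours and 0.670% at day 14, against 15.4% and 6.06% of the 1932 kept second set guides.

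Guide 1193 had 299.9 and 322 CPM in the tumours and 306 and 293 CPM at day 14, against 240.0 and 221 CPM at day 0. It was close between the replicates of each group and stood above day 0 in every end library, by 0.43 in the tumours and 0.38 at day 14, which is less than the median shift of the non-targeting guides. Over first set guides 37% lay above day 0 in both tumours and 46.8% in both cultures. Guide 1195 had 1213 and 209 CPM in the tumours and 351 and 383 CPM at day 14, against 228 and 259 CPM at day 0. The first tumour held the highest value of any of the 20 guides and the second tumour a value below both day 0 libraries.

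Guide 1191 had 314 and 119.9 CPM in the tumours and 207 and 400.5 CPM at day 14, against 83.8 and 302 CPM at day 0. Guide 1194 had 159 and 147 CPM in the tumours and 264 and 123 CPM at day 14, against 85.5 and 175 CPM at day 0. For both guides the day 0 libraries themselves lay far apart, and at least 1 tumour value fell between them.

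The day 0 libraries also differed for the second set guides of PRPF19. All 5 were lower in day 0 replicate 2 than in replicate 1, with differences of -3.17 to -0.97 on the log2(CPM + 1) scale (median -1.59), whereas the first set guides of the gene had a median of 0.68 and all second set guides of -0.11. The 5 second set guides of RPL13, which encodes a large subunit ribosomal protein, had a median of -1.74 in the same comparison, and those of SRSF2 had -0.30. With 1 library on each side this has no replicate check. Set against day 0 replicate 2 alone, the summed PRPF19 second set had a log2 fold change of -3.54 in the tumours and -4.54 at day 14, smaller than with both day 0 libraries.

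To compare groups over libraries, the counts of the guides of a gene were summed within each set, and all 647 sums of a gene and set were fitted together by the quasi-likelihood test of edgeR, with a threshold of 0.05 after Benjamini-Hochberg adjustment. The PRPF19 second set had 56.3 and 5.48 CPM in the tumours and 23.2 and 8.65 CPM at day 14, against 1098 and 381 CPM at day 0. It fell by 4.60 on the log2 scale in the tumours (adjusted p = 0.0277 in edgeR), the fourth largest loss of the 647 sums. At day 14 its log2 fold change was -5.54, the lowest of the 647, but the adjusted p was 0.0651 in edgeR, so it did not pass the threshold. Fitted with limma to the log2 CPM of the sums, for a standard error, the values were -5.07 (SE 1.01, adjusted p = 0.0141) in the tumours and -5.41 (SE 1.01, adjusted p = 0.0244) at day 14.

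The SRSF2 second set had 191 and 365 CPM in the tumours and 95.9 and 292 CPM at day 14, against 1279 and 847 CPM at day 0. It fell by 1.94 in the tumours (adjusted p = 0.0392 in edgeR, rank 32 of 647 from the lowest), and at day 14 its log2 fold change was -2.45 (adjusted p = 0.0713 in edgeR, rank 18). In the tumours guide 1565 alone made up 55.2% and 89.0% of the counts of the set, so the sum there mostly follows that guide. In limma the values were -1.98 (SE 0.56, adjusted p = 0.0364) in the tumours and -2.63 (SE 0.56, adjusted p = 0.0352) at day 14. The median difference of the 5 guides, which weights them equally, was -3.98 in the tumours and -2.79 at day 14.

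By this test 10.8% of all sums were lower in the tumours than at day 0 and 20.1% of second set sums, and 2.63% and 4.89% were lower at day 14. None of the first set sums was called lower in either comparison. The first set of PRPF19 had log2 fold changes of -0.14 in the tumours (adjusted p = 0.684) and -0.21 at day 14 (adjusted p = 0.609), and that of SRSF2 had 0.34 (adjusted p = 0.496) and 0.09 (adjusted p = 0.893). With scaling to the non-targeting guides the PRPF19 first set stood at -0.68 in the tumours (adjusted p = 0.125) and -0.74 at day 14 (adjusted p = 0.101), and with the authors' values at -0.64 (adjusted p = 0.126 in limma) and -0.71 (adjusted p = 0.0958). The SRSF2 sum holds guide 1192, with 14 of 7176 and 197 of 5445 counts in the tumours and 104 of 4418 and 90 of 5497 counts at day 14, against 7946 of 23583 and 1601 of 6519 counts at day 0. The sign of this sum turned negative in both comparisons with scaling to the non-targeting guides.

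The calls on the sums depended on which libraries set the spread. When any day 0 or day 14 library was left out, every lower call against day 0 over all sums was lost. With the replicate numbers as a block the adjusted p at day 14 was 0.0129 for PRPF19 and 0.0161 for SRSF2. With a block by transduction, both tumours under replicate 1, it was 0.0534 and 0.0980 in the tumours and 0.0877 and 0.0906 at day 14. Without tumour 1 the PRPF19 second set stood at -7.07 in the remaining tumour and without tumour 2 at -3.72, and for SRSF2 the values were -1.54 and -2.48. With 1 tumour left these fits hold no spread between tumours, so only the size of the change is given. In the tumours, leaving out day 0 replicate 1 gave -3.54 for PRPF19 (adjusted p = 0.273) and -1.51 for SRSF2 (adjusted p = 0.260), leaving out day 0 replicate 2 gave -5.16 (adjusted p = 0.113) and -2.20 (adjusted p = 0.135), and leaving out either day 14 library gave adjusted p-values of 0.0583 to 0.0709. At day 14, leaving out either tumour left the log2 fold changes at -5.55 for PRPF19 and -2.45 for SRSF2. All sums shared 1 estimate of spread in these fits, so only the size of the change is given. Leaving out a day 14 library gave adjusted p-values of 0.498 to 0.532 at day 14, and leaving out a day 0 library 0.225 to 0.687.

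Single guides were tested in the same way over 3607 guides. In the tumours SRSF2 guides 1563 (log2 fold change -4.06, adjusted p = 0.0442 in edgeR) and 1564 (-6.25, adjusted p = 0.0478) were called lower, as were 1.14% of all guides, and no guide of either gene was called higher, against 0.554% of all guides. The 5 second set guides of PRPF19 had adjusted p-values of 0.0760 to 0.160 there. At day 14 edgeR called 0 of the 20 guides and 0% of all guides lower. At an unadjusted p under 0.05, 9 of the 20 guides were lower in the tumours (12.8% of all guides) and 8 at day 14 (7.18% of all guides), and DESeq2 called 9 of the 20 lower in the tumours (10.8% of all guides) and 7 at day 14 (3.66% of all guides) at an adjusted p under 0.05. The 2 calls of edgeR in the tumours were lost when any day 0 or day 14 library was left out. So was every other lower call over all guides in the tumours.

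A comparison between the sets of a gene depends little on the scaling of libraries, since both sets are read in the same library. The median log2(CPM + 1) of the second set minus that of the first set was computed for each library and fitted with limma over the 299 genes that have at least 3 kept guides in each set. For PRPF19 this set difference was -5.16 and -6.11 in the tumours and -5.45 and -5.23 at day 14, against 0.05 and -1.96 at day 0. It fell by 4.68 in the tumours (SE 0.71, adjusted p = 0.00209 in limma) and fell by 4.39 at day 14 (SE 0.71, adjusted p = 0.00398). The split into sets was chosen with earlier results of these data known, so these p-values are not an independent test of it. The second set medians of PRPF19 were 2.49 and 0.304 CPM in the tumours and 1.57 and 1.33 CPM at day 14. The added 1 draws such low values together, so the SE may be too small.

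For SRSF2 the set difference was -4.09 and -3.02 in the tumours and -4.86 and -2.46 at day 14, against 0.07 and -0.74 at day 0. It fell by 3.22 in the tumours (SE 0.81, adjusted p = 0.0154 in limma) and fell by 3.32 at day 14 (SE 0.81, adjusted p = 0.0292). In both genes and both comparisons every end library lay below both day 0 libraries. How many of the 299 genes showed this was not counted. Among single second set guides of the library, both libraries lay below day 0 for 46.6% in the tumours and 52.3% at day 14. Over the 299 genes the median change was -1.30 in the tumours, with 40.8% of genes called lower, and -0.99 at day 14, with 13.7% called lower. By size the change of PRPF19 ranked 11 of 299 in the tumours and 12 at day 14, and that of SRSF2 ranked 31 in the tumours and 20 at day 14. The calls for SRSF2 were lost with a block by transduction (adjusted p = 0.101 in the tumours and 0.111 at day 14) and without day 0 replicate 1 (0.107 and 0.238), and that at day 14 also without day 0 replicate 2 (0.0852) or day 14 replicate 1 (change of -2.12, adjusted p = 0.172). For PRPF19 the call at day 14 was lost without day 0 replicate 1 (adjusted p = 0.0518), and that in the tumours held in each of these fits.

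The share of the reads of a gene that its second set held restates the same counts and is no further test of the shift. For PRPF19 this share was 6.17% (95% Wilson interval 5.39 to 7.04) and 0.658% (0.476 to 0.909) in the tumours and 2.55% (2.08 to 3.13) and 1.19% (0.873 to 1.63) at day 14, against 57.5% (57.0 to 57.9) and 26.7% (25.7 to 27.7) at day 0. For SRSF2 it was 8.76% (8.16 to 9.41) and 30.6% (29.5 to 31.6) in the tumours and 7.67% (6.95 to 8.46) and 19.3% (18.4 to 20.3) at day 14, against 57.1% (56.7 to 57.5) and 40.1% (39.1 to 41.0) at day 0. The intervals cover counting error only, and the distance between replicates exceeds them in every group. The median share over the 299 genes was 27.1% and 30.8% in the tumours and 32.8% and 31.7% at day 14, against 50.0% and 45.9% at day 0.

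Counted from the lowest share of the 299 genes, PRPF19 ranked 22 and 5 in the tumours and 3 and 1 at day 14, against 240 and 12 at day 0. SRSF2 ranked 34 and 147 in the tumours and 17 and 55 at day 14, against 236 and 78 at day 0. The low rank of PRPF19 in day 0 replicate 2 is the counterpart of the lower second set counts in that library, and the high share of SRSF2 in tumour 2 is that of guide 1565.

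Set directly against the cultures, the tumours showed no call for either gene. The PRPF19 second set sum had a log2 fold change of 0.94 (adjusted p = 0.632 in edgeR) and that of SRSF2 of 0.52 (adjusted p = 0.608), while 0% of all sums were called lower and 2.63% higher. The set differences changed by -0.30 for PRPF19 (SE 0.71, adjusted p = 0.873 in limma) and by 0.10 for SRSF2 (SE 0.81, adjusted p = 0.961). Among single guides 0 of 20 were called, against 0% of all guides lower and 0.0277% higher, and 1565 was the only guide of these genes with an unadjusted p under 0.05 (log2 fold change 1.89, adjusted p = 0.349 in edgeR), on the side where 8.54% of all guides were higher at that p.

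With 2 libraries in each group, differences of the size of these SEs could not be told from 0, so the lack of a call leaves room for a difference between tumours and culture. The sign of the sum was not fixed either. Without tumour 1 the PRPF19 second set stood at -1.53 against day 14, and without tumour 2 at 1.83. For SRSF2 the values were 0.91 without tumour 1 and -0.02 without tumour 2. These fits leave 1 tumour and hold no spread between tumours. The tumours lay on either side of both cultures for PRPF19, and for SRSF2 tumour 1 fell between the cultures and tumour 2 above them.

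By the median of the second set guides, in log2(CPM + 1) against the mean of day 0, PRPF19 stood at -4.18 and -5.81 in the tumours and at -4.95 and -5.67 at day 14. Counted from the lowest of the 348 genes of the library these were ranks 20 and 2 in the tumours and 5 and 2 at day 14. The PRPF19 medians fell on guides with 0 and 2 counts in the tumours and 6 and 2 counts at day 14. They and their ranks therefore depend strongly on the added 1 and on the day 0 level. The tumour 1 value is that of guide 2903, for which no fold is given. SRSF2 stood at -4.0 and -3.95 in the tumours (ranks 22 and 17) and at -4.28 and -1.49 at day 14 (ranks 8 and 54).

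Over these 4 values the genes nearest to PRPF19 by Euclidean distance were RPS27A (0.775), which encodes a small subunit ribosomal protein fused to ubiquitin, CDC45 (1.24), a part of the replicative helicase, and PIAS1 (1.53), a SUMO ligase. The nearest to SRSF2 were SAE1 (1.502), a subunit of the SUMO activating enzyme, AAMP (1.58) and BRD9 (2.01), a subunit of a BAF-type chromatin remodeller. The distance between PRPF19 and SRSF2 was 4.62, which placed SRSF2 at rank 22 for PRPF19. The distances are taken over 4 libraries that share their day 0 reference, and they describe the values only. Those from PRPF19 rest on medians of 6 counts or fewer, so they depend on the added 1 as well.

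Of a list of 5 splicing and snRNP genes, chosen with earlier results known, 4 were in the library. GEMIN2, a partner of SMN in assembling snRNPs, had a second set sum that fell by 1.91 in the tumours (adjusted p = 0.0114 in edgeR), with a log2 fold change of -1.65 at day 14 (adjusted p = 0.0511). CELF5, of a family that regulates alternative splicing, had 0.45 in the tumours and -1.12 at day 14, FRG1 had 0.78 and -0.18, and RBM23, an RNA-binding protein with second set guides only, had -0.62 and -0.72. So 1 of 4 was called lower in the tumours, where 20.1% of all second set sums were, and 0 of 4 at day 14, where 4.89% were. The median of the 4 was -0.09 in the tumours, against -0.26 over all second set sums, and -0.92 at day 14, against -0.50.

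Of a list of 10 ribosome and ribosome assembly genes, chosen in the same way, 4 were in the library. RPL13 had a second set sum that fell by 5.18 in the tumours (adjusted p = 0.0110 in edgeR) and fell by 4.32 at day 14 (adjusted p = 0.0336). RPL14, also of the large subunit, had -3.35 in the tumours and -3.86 at day 14, RPS27A had -3.61 and -3.90, and ESF1, a nucleolar protein of ribosomal RNA processing, had 0.31 and -1.43, none of which passed the test. The median of the 4 was -3.48 in the tumours and -3.88 at day 14. PRPF19, at -4.60 in the tumours and -5.54 at day 14, lay within the range of the ribosomal proteins in the tumours and below them at day 14, and SRSF2, at -1.94 in the tumours and -2.45 at day 14, lay closer to GEMIN2. The SRSF2 sum in the tumours mostly follows guide 1565, however, and the median difference of its 5 second set guides was -3.98 there and -2.79 at day 14. In the first set, 1 of 3 sums of the splicing list and 2 of 4 of the ribosome list were called higher in the tumours, where 40.8% of all first set sums were, and none was called at day 14.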

How the data were processed

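The authors deposited raw counts per guide, obtained with MAGeCK from paired-end reads matched to their own guide list. The submitters' processing notes name MAGeCK and hg38, both without a version. A second deposited table holds normalized signal values, each count column times 1 constant per library, by a rule not given in the sources used here. Every column matched a sample by name. Depth was 3394352 to 21854232 counts per library. Counts come from PCR reads without molecular identifiers, so the intervals given cover counting error only.

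The filter required a mean of 30 counts over day 0, and scaling was by TMM. Guides, and sums of counts per gene and guide set, were tested in edgeR 4.0.16 under R 4.3.3 (glmQLFTest after glmQLFit, 6 libraries in 1 fit, two-sided, Benjamini-Hochberg over the 3607 guides or 647 sums, threshold 0.05; common dispersion 0.303 and 0.0756). Set differences, and the standard errors of the sums on the log2(CPM + 1) scale, used limma 3.58.1. Medians and shares used pandas 2.3.3, numpy 2.4.6 and scipy 1.17.1 under Python 3.11.15. The p-values of the main fits rest on the spread between the 2 libraries of a group, pooled over the 3 groups. That spread is also drawn towards the spread over all features fitted. A group left with 1 library adds nothing to it. The rank aggregation of the study's methods was not run, since it draws random guide sets. The procedure was also run on simulated data with the same spread in every group, so that run could not check groups of unequal spread. In the real guides the common dispersion was 0.141 with day 14 and day 0 alone and 0.375 with in vivo and day 0 alone.

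Same-numbered libraries correlated by 0.0694 (day 14 and day 0), 0.00198 (in vivo and day 0) and 0.00252 (in vivo and day 14) in their deviations from the group means. By the methods each transduction gave a day 0 aliquot and the cells of both arms, so the numbers pair day 14 with day 0, and a replicate block was fitted by label and with both tumours in the transduction of replicate 1. Other alternatives were DESeq2 1.42.0, scaling to the non-targeting guides, size factors by median ratio, no filter, 2 groups alone, limma on log2 of the authors' normalized signal plus 1, the median of guides with limma, and each library left out. The alternatives for the set difference were added after seeing the data. The members, the split and the lists were chosen with earlier results of these data known. The named genes are PRPF19, SRSF2, both lists and the 3 nearest genes to each. SNRNP27, RPS21, NOP14, UTP18, LSG1, POLR1B and LYAR were not analysed here.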

Additional observations from a re-analysis of the deposited data

How the results depend on the processing

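Low counts in the end libraries and 2 libraries per group limit these values. Median-ratio size factors and no filter changed no direction and no call on the sums and the counts of called guides. At day 14 the PRPF19 and SRSF2 second set sums passed the threshold at -6.08 and -3.0 when the non-targeting guides set the scale, at -5.54 and -2.45 with DESeq2, at -5.55 and -2.45 with 2 groups alone, at -5.99 and -3.14 with limma on the authors' values, at -5.02 and -3.13 as medians of guides, and at -5.52 and -2.69 with the replicate block. Over all 647 sums the lower calls at day 14 numbered 152, 81, 178, 142, 41 and 42 in the same order, against 17 in the main fit. In vivo they lost the call at -4.60 and -1.94 with 2 groups alone and at -5.14 and -1.76 with the replicate block by transduction. Of all 647 sums, 6 and 32 were called lower in vivo in these fits, against 70 in the main fit. The SRSF2 first set turned negative when scaled to the non-targeting guides (-0.24 in vivo and -0.44 at day 14), with the authors' values (-0.29 and -0.40) and, in vivo, as a median (-0.21 against day 0 and -0.40 against day 14). As medians, the second sets against day 14 turned to -0.20 for PRPF19 and -0.30 for SRSF2. The cause of these turns was not tested. Of the 20 guides, DESeq2 called 9 lower in vivo and 7 at day 14 (391 and 132 of all 3607 guides), 2 groups alone 0 and 7 (0 and 293 of all), limma on the authors' values 7 and 3 (260 and 48 of all), and either replicate block 0 in vivo (0 of all). With the replicate block by transduction the SRSF2 set difference changed by -2.82 in vivo and -3.32 at day 14, no longer past the threshold, and the replicate block by label changed no other call than those given.

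With each library left out in turn, the log2 fold changes of the PRPF19 second set ranged from -7.07 to -3.54 in vivo, -6.38 to -4.54 at day 14 and -1.53 to 1.87 between in vivo and day 14. Those of the SRSF2 second set ranged from -2.48 to -1.51, -3.43 to -1.82 and -0.023 to 1.59 in the same order, those of the PRPF19 first set from -0.22 to 0.051, -0.34 to -0.019 and -0.024 to 0.29, and those of the SRSF2 first set from -0.43 to 0.84, -0.053 to 0.30 and -0.52 to 0.75. The set difference ranged from -5.67 to -3.69, -5.38 to -3.37 and -0.79 to 0.19 for PRPF19 and from -3.76 to -2.69, -4.52 to -2.12 and -1.10 to 1.30 for SRSF2. Guides called lower numbered 0 to 9 in vivo, 0 to 7 at day 14 and 0 to 2 between in vivo and day 14, and guides called higher 0 to 1, 0 to 0 and 0 to 2. The most lower calls came without a tumour, where 596 (without tumour 1) and 624 (without tumour 2) of all 3607 guides were called lower in vivo, 252 and 267 at day 14, and 342 and 315 between in vivo and day 14. The most higher calls came without tumour 2, where 528 of all guides were called higher in vivo and 361 between in vivo and day 14. Without tumour 2, the SRSF2 first set stood at 0.84 in vivo against day 0 and at 0.75 against day 14, with 1 tumour left in the fit.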
